A study of Mus musculus with 18 samples.

Results

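The mitochondrially encoded transcripts are the RNAs copied from the mitochondrion's own circular genome. They were taken here as every row of the count table whose symbol starts with mt-, which gave 33 of 31787 genes. Of these, 13 encode proteins (mRNAs), 2 are ribosomal RNAs (rRNAs) and 18 are transfer RNAs (tRNAs). The GENCODE M21 annotation of the mouse genome (GRCm38, mm10) lists 37 genes on this chromosome, among them 22 tRNAs. The remaining 4 tRNA genes, mt-Td, mt-Tg, mt-Tk and mt-Tl2, were not analysed here.

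RNA of 18 whole mouse kidneys was sequenced in 6 groups of 3, mostly after unilateral ureteral obstruction (UUO), a ligation of 1 ureter that scars the kidney above it. The Myc cKO UUO kidneys carried floxed Myc and GGT-Cre, which is active in tubular epithelium, and came from mice of 11 to 12 weeks. The Snail cKO UUO and Twist cKO UUO kidneys carried floxed Snail or floxed Twist with Cdh5-CreERT2, an inducible Cre of endothelial cells, and the mice of these and of all other groups were 12 weeks old. The WT UUO kidneys and the contralateral kidneys, taken from the side opposite a ligation, each came from 2 Cre-positive Twist-line mice without floxed alleles and 1 Cre-negative mouse with floxed Twist. The healthy kidneys came from 3 Cre-negative mice with floxed Twist. Sex, read here from the counts of Ddx3y and Xist, was mixed in every group. In Myc cKO UUO and in Snail cKO UUO 2 of 3 kidneys were male, against 1 of 3 in each other group. The Snail and Myc lines were of mixed C57BL6 and Balb/c background, and the Twist line, which gave every other group, also held 129sv. A strain difference therefore cannot be told apart from the Snail and Myc knockouts, and because the tissue was whole kidney, neither knockout was measured in the cells it was made in.

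Mitochondrial DNA is transcribed from both strands into long RNAs by the mitochondrial RNA polymerase Polrmt with its partner Tfam. The tRNAs lie between the other genes, and cutting them out releases the mRNAs and the rRNAs. The mRNAs encode core subunits of respiratory complexes I, III, IV and V, whose other subunits are made from nuclear genes, and the rRNAs form the mitochondrial ribosome. Kidney tubules, above all the proximal tubule, are rich in mitochondria, which supply the energy for reabsorption.

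Library totals were 56.7 to 72.2 M counts for Myc cKO UUO, 57.1 to 67.9 M for Snail cKO UUO, 52.6 to 73.9 M for Twist cKO UUO and 59.5 to 62.0 M for WT UUO, against 86.1 to 91.3 M for contralateral and 78.1 to 88.2 M for healthy kidneys. All 10 proximal tubule markers were detected in every group, so the libraries carried the labelled tissue. Levels are given as CPM, each count divided by its library's total after scaling by TMM, the trimmed mean of log ratios between libraries. Twist1 was lower in Twist cKO UUO than in WT UUO (0.378, 0.596 and 0.307 against 2.13, 4.49 and 1.14 CPM, log2 fold change -2.59 ± 0.49 SE, edgeR adjusted p = 0.017). Snai1 in Snail cKO UUO (1.98, 1.69 and 2.27 against 3.20, 3.44 and 2.40 CPM, adjusted p = 0.49) and Myc in Myc cKO UUO (18.8, 19.8 and 10.8 against 22.1, 23.8 and 21.8 CPM, adjusted p = 0.22) did not pass the edgeR test against WT UUO. The third Myc cKO UUO library stood apart from its group in most results that follow, with the group's highest levels of mitochondrial mRNA and of proximal tubule markers and its lowest level of fibroblast markers. The third Twist cKO UUO library stood apart in the balance of the 2 rRNAs. Leaving out the first WT UUO library lowered several counts of calls further than leaving out either other library of its group did.

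Part of the mitochondrial genome is repeated almost letter for letter in the nucleus, which bears on whether counts of some members can be read at face value. Stretches of each gene as long as a sequencing read, 75 bases, were looked up in all annotated nuclear transcripts. Of the 610 such words of mt-Co2, 607 also occur in Gm28661, which lies on chromosome 1 next to copies of the neighbouring mitochondrial genes. For mt-Atp6 the number was 604 of 607 (Gm10925), for mt-Co3 709 of 710 (Gm28437), for mt-Nd3 268 of 274 (Gm28438) and for mt-Nd4l 220 of 223 (Gm10222). mt-Nd4 shared 802 of 1304 words and mt-Co1 586 of 1471, mt-Nd2 55 of 964 and mt-Nd5 29 of 1750. None was shared by mt-Rnr1, mt-Rnr2, mt-Nd1, mt-Nd6, mt-Cytb or mt-Atp8, although mt-Atp8 shares 43 bases with the start of mt-Atp6. The copies of mt-Co2, mt-Atp6, mt-Co3 and mt-Nd4l were identical over the aligned 681, 678, 783 and 294 bases. The copy of mt-Nd4, Gm28439, lies on the same stretch of chromosome 1 and was identical over 876 of the 1378 bases of mt-Nd4.

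The following sequences, from the GENCODE M21 transcripts of GRCm38, show how little separates the pairs. The first 2 are 1 read length of mt-Co2 and the same stretch of its nuclear copy, and the next 2 are the first bases of mt-Nd3 and of its copy, which hold the only mismatch of that pair, T3C (position 3 of mt-Nd3 from its 5′ end), in capitals. The last is the overlap of mt-Atp8 and mt-Atp6.
mt-Co2, chrM:7313-7387, plus strand: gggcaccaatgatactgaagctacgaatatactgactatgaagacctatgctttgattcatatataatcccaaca
Gm28661, chr1:24615191-24615265, minus strand: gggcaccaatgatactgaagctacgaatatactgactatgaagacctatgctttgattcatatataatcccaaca
mt-Nd3, chrM:9459-9491, plus strand: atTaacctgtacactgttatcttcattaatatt
Gm28438, chr1:24613087-24613119, minus strand: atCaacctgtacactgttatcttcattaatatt
mt-Atp8 and mt-Atp6, chrM:7927-7969, plus strand: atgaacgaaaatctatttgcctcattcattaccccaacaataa

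The 5 members that share nearly all their words, and mt-Atp8, had very low counts. Levels of different genes are compared per kilobase of gene. mt-Co1 stood at 2613 ± 219.5 CPM per kb in WT UUO and 14862 ± 652 in contralateral kidneys (SD, n = 3), whereas mt-Co2, which encodes the next subunit of complex IV, stood at 2.50 ± 0.191 and 41.6 ± 20.4. mt-Co3, mt-Atp6, mt-Nd3, mt-Atp8 and mt-Nd4l likewise lay between 0.122 and 3.08 CPM per kb in WT UUO and between 3.35 and 53.8 in contralateral kidneys. Counts of these 6 ran from 1 to 3865 per library. mt-Nd4, whose copy covers part of it, had 21004 to 212076 counts per library. How the authors' pipeline treated reads with more than 1 match is not given in the sources used here, so the values of mt-Co2, mt-Co3, mt-Atp6, mt-Atp8, mt-Nd3 and mt-Nd4l are uncertain, and they are kept apart from the rest below. mt-Nd4 and mt-Co1, which share part of their words, carry the same uncertainty over those parts. Whether the nuclear copies account for the low counts was not tested.

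**Figure D1:**
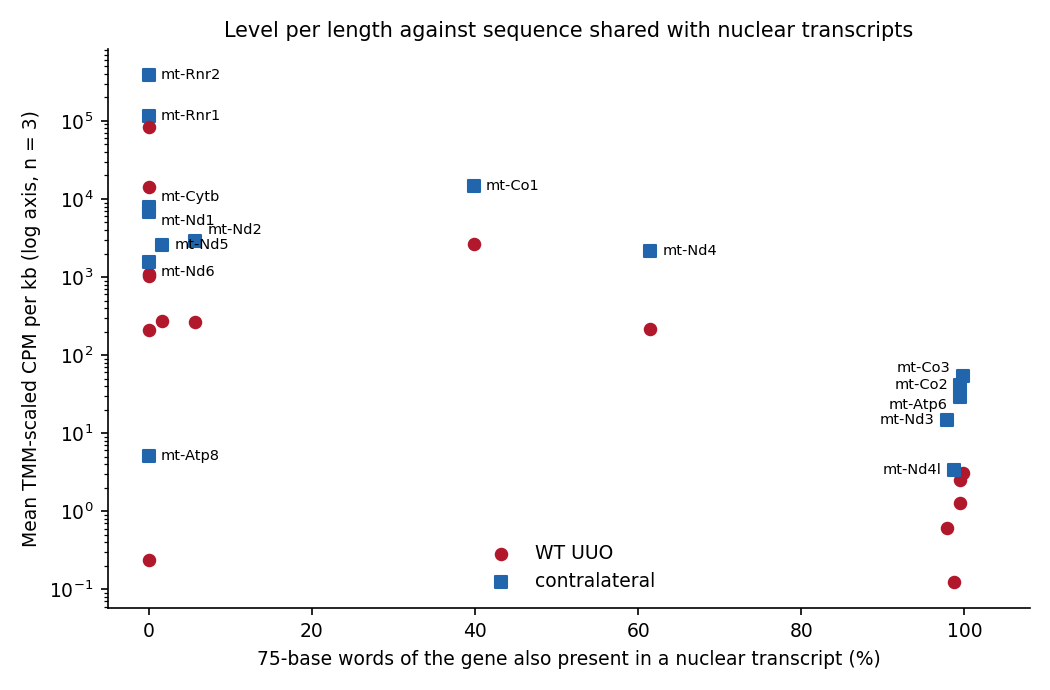
Mean TMM-scaled CPM per kilobase (log axis, n = 3) of the mitochondrial mRNAs and rRNAs in WT UUO and contralateral kidneys, against the percentage of each gene's 75-base words that also occur in an annotated nuclear transcript. The 5 genes on the right, which share nearly all words, and mt-Atp8, which overlaps one of them, lie far below the others, while mt-Co1 and mt-Nd4, which share some words, lie with the genes that share few or none.

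Among the tRNAs, counts were confined almost wholly to 3. mt-Tc, mt-Tn and mt-Tp, which carry cysteine, asparagine and proline, held 108235 of the 108872 tRNA counts of the 18 libraries (99.4%). They are printed here because all later tRNA values rest on them, with the anticodon in capitals.
mt-Tc, chrM:5192-5257, minus strand: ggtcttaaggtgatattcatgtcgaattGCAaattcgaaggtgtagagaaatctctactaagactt
mt-Tn, chrM:5089-5159, minus strand: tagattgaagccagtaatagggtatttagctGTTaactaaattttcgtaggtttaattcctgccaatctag
mt-Tp, chrM:15356-15422, minus strand: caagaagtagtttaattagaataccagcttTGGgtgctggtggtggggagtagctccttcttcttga

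All 3 lie on the minus strand, as do 5 other tRNA rows with few counts, and the 10 tRNA rows on the plus strand together held 0.310% of the tRNA counts. These 3 are shorter than a read of 75 bases, so their rows can hold only fragments or reads that run over their ends. mt-Te and mt-Tl1 passed the filter on low counts, although no group of obstructed kidneys reached its minimum in every library. The other 13 tRNAs were not tested: none exceeded 15 counts in a library, and mt-Th and mt-Tw had 0 in all 18.

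In all, 20 members passed the filter on low counts, and 16 of them reached its minimum in every group: the 2 rRNAs, 11 mRNAs, and mt-Tc, mt-Tn and mt-Tp. For mt-Atp8, mt-Nd4l, mt-Te and mt-Tl1, no group of obstructed kidneys reached it in every library. Their counts there were low, and part of their passing may rest on unobstructed kidneys, so counts of calls are given over the 16.

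Mitochondrial transcripts of every class were lower in obstructed kidneys. The 13 mRNAs together took 0.907, 1.12 and 1.01% of all counts in the WT UUO libraries, against 3.28, 3.39 and 3.15% in contralateral kidneys and 3.71, 4.03 and 3.70% in healthy kidneys. The uncertain mRNAs added few counts to these sums. The WT UUO libraries lay below every unobstructed library, and a single comparison of 3 against 3 libraries cannot reach an exact permutation p below 0.10. The tRNA share was 0.00384 ± 0.000190% in WT UUO, against 0.0114 ± 0.00242% in contralateral kidneys and 0.0151 ± 0.00188% in healthy kidneys (SD, n = 3 each). The widest 95% Wilson interval of any share of a class in a library spanned 0.0236 percentage points, which covers counting error only.

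**Figure D2:**
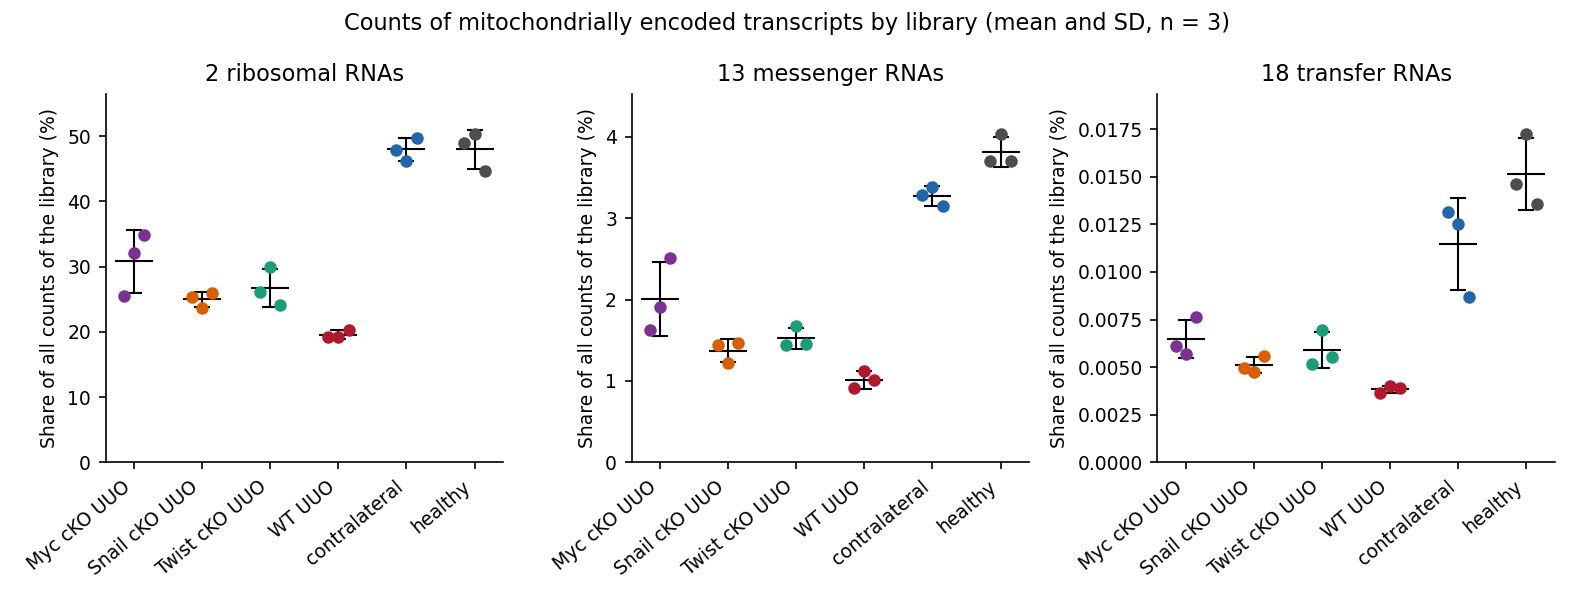
Share of all counts of a library (%) taken by the mitochondrial rRNAs, mRNAs and tRNAs in the 6 groups. Points are libraries, horizontal bars are means and error bars are SD (n = 3). In every panel the WT UUO libraries are the lowest, the 3 knockouts lie above them, and no obstructed library reaches the unobstructed ones.

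All 16 members at the filter minimum in every group were lower in WT UUO than in contralateral kidneys in edgeR's quasi-likelihood test (Benjamini-Hochberg adjusted p under 0.05), where 26.0% of the 21050 genes tested were called lower. All 16 were also lower than in healthy kidneys, where 27.1% were called lower. In both comparisons the groups of libraries did not overlap for any of the 16, as for 29.8% and 29.7% of all genes in this direction. Their median log2 fold change was -3.00 against contralateral and -3.29 against healthy kidneys, while the median over all genes tested was 0.06 and 0.05. On library totals alone, without TMM, the median of all genes stood at 1.10 and 1.12, and all 16 were still called lower in each comparison. In whole kidney, fewer cells rich in mitochondria and less mitochondrial RNA per cell cannot be told apart.

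The large ribosomal RNA mt-Rnr2, the most abundant RNA of the table, had 128076, 128699 and 134743 CPM in WT UUO, against 600216, 618491 and 639620.4 CPM in contralateral kidneys, a log2 fold change of -2.25 ± 0.25 (SE, edgeR adjusted p = 3.5e-06). The small ribosomal RNA mt-Rnr1 had 12686, 13668 and 14039 CPM in WT UUO, against 104342, 124932 and 106485 CPM in contralateral kidneys, a log2 fold change of -3.06 ± 0.22 (edgeR adjusted p = 1.2e-07). The 2 rRNAs are neighbours on the genome and come from the same precursor, yet mt-Rnr2 had the smaller fold change. Because TMM divides by an effective library size, and the 33 members together took 48.3 to 54.3% of all counts in the unobstructed libraries, these CPM values are not shares of a library.

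Of the complex I subunits, mt-Nd2 had 240.3, 342 and 256 CPM in WT UUO, against 2947, 3499 and 2667 CPM in contralateral kidneys (log2 fold change -3.44 ± 0.26, edgeR adjusted p = 1.5e-07). mt-Nd1 had 919.6, 1181 and 1068 CPM in WT UUO, against 6219, 7091 and 6057 CPM in contralateral kidneys (-2.61 ± 0.27, edgeR adjusted p = 1.8e-06). mt-Nd4 and mt-Nd5 had fold changes of -3.30 ± 0.26 and -3.25 ± 0.25. mt-Nd6, the only mRNA encoded on the minus strand, had 99.6, 122 and 105 CPM in WT UUO, against 794, 861 and 776 CPM in contralateral kidneys (-2.89 ± 0.25, edgeR adjusted p = 3.9e-07). For each of them the contralateral libraries lay several times above the highest WT UUO library.

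Outside complex I, mt-Cytb, the cytochrome b of complex III, had 967, 1382 and 1148 CPM in WT UUO, against 8075, 10331 and 8365 CPM in contralateral kidneys (log2 fold change -2.94 ± 0.25, edgeR adjusted p = 4.2e-07). mt-Co1, the catalytic subunit of complex IV, had 3724, 4398 and 3992 CPM in WT UUO, against 22681, 24079 and 22125 CPM in contralateral kidneys (-2.51 ± 0.24, edgeR adjusted p = 8.7e-07). mt-Co1 took 54.3 ± 1.63% of all mitochondrial mRNA counts in WT UUO, against 46.0 ± 1.59% in contralateral kidneys and 46.7 ± 3.50% in healthy kidneys (SD, n = 3 each). The uncertain mRNAs held few of these counts, so the percentage cannot be read as the part of mt-Co1 in all mitochondrial mRNA. The 4 uncertain members that reached the filter minimum had larger fold changes, -4.06 ± 0.50 for mt-Co2, -4.13 ± 0.55 for mt-Co3, -4.52 ± 0.53 for mt-Atp6 and -4.59 ± 0.50 for mt-Nd3, with SEs about as large again as those of the others.

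The tRNA mt-Tc had 14.4, 14.7 and 14.1 CPM in WT UUO, against 113, 119 and 71.3 CPM in contralateral kidneys (log2 fold change -2.81 ± 0.24, edgeR adjusted p = 3.8e-07). mt-Tn changed by -2.83 ± 0.25 and mt-Tp by -1.99 ± 0.30, the smallest fold change of the 16. Without knowing the strand setting of the counting, reads of minus-strand genes and of RNA copied from the opposite strand cannot be told apart.

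Between contralateral and healthy kidneys no member passed the test (edgeR, where 2.26% of all genes were called), while some shares and ratios did not overlap. Of the 20 tested, 1 had an unadjusted p under 0.05, and DESeq2 and limma also called 0. mt-Nd1 had the lowest fold change of the mRNAs and rRNAs, -0.45 ± 0.26 (edgeR adjusted p = 0.40), and mt-Co1 stood at -0.29 ± 0.23 (edgeR adjusted p = 0.56), with overlapping libraries. Shares of all counts were set further apart: the 13 mRNAs took 3.15 to 3.39% in contralateral kidneys and 3.70 to 4.03% in healthy kidneys, and mt-Co1 took 1.48 to 1.54% and 1.71 to 1.87%. mt-Co1 per count of mt-Rnr2 was 0.0346 to 0.0389 in contralateral kidneys, against 0.0408 to 0.0459 in healthy kidneys, and mt-Nd1 per count of mt-Rnr2 was 0.00947 to 0.0115, against 0.0122 to 0.0147. These groups of libraries did not overlap, which 3 against 3 libraries cannot carry below an exact permutation p of 0.10. The 3 healthy libraries were themselves spread widely in CPM: mt-Nd1 had 8390.1, 11447 and 6534 CPM in healthy kidneys.

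The knockouts differed in how far the obstructed kidneys' mitochondrial transcripts lay above those of WT UUO. In Myc cKO UUO, 14 of the 16 were higher, where 5.31% of all genes tested were called higher. The group's libraries lay above all WT UUO libraries for 15 of them, as for 15.3% of all genes. In Twist cKO UUO, 5 of the 16 were higher (2.97% of all genes), and in Snail cKO UUO, 1 of the 16 was higher (0.162% of all genes). The median log2 fold change of the 16 was 1.32 for Myc cKO, 0.58 for Snail cKO and 0.93 for Twist cKO kidneys, against medians of all genes within 0.01 of 0. The 3 comparisons share the WT UUO libraries.

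**Figure D3:**
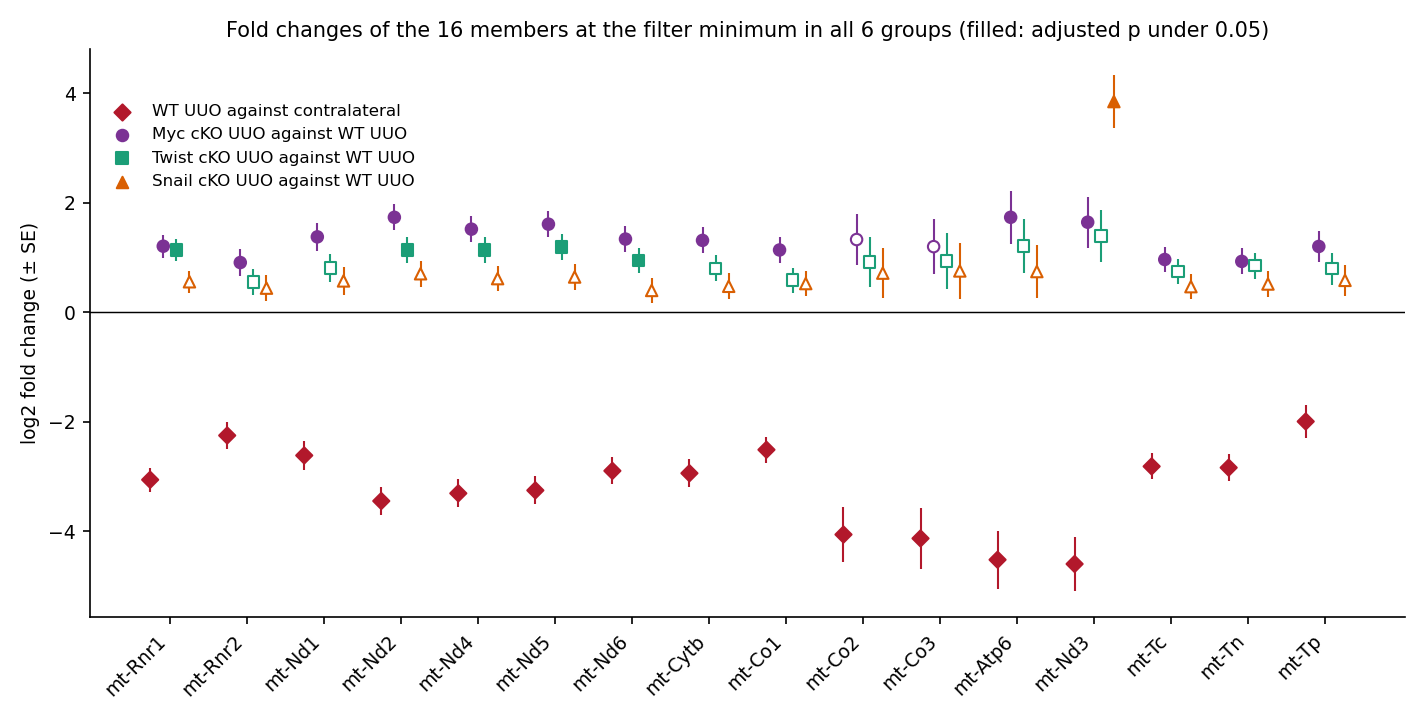
log2 fold changes (± SE, edgeR) of the 16 members at the filter minimum in every group, for WT UUO against contralateral kidneys and for each knockout against WT UUO. Filled symbols passed the test; all WT UUO symbols lie near or below -2, the Myc cKO symbols lie near or above 1, and mt-Nd3 in Snail cKO UUO stands alone at 3.85.

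In Myc cKO UUO, mt-Nd2 had 713, 876 and 1203 CPM, against 240.3, 342 and 256 CPM in WT UUO (log2 fold change 1.74 ± 0.24, edgeR adjusted p = 0.0017). mt-Nd5 had 1266, 1345 and 1964 CPM in Myc cKO UUO, against 448, 558 and 491 CPM in WT UUO (1.61 ± 0.24, edgeR adjusted p = 0.0023). mt-Co1 had 6128, 8309.9 and 12269.7 CPM in Myc cKO UUO, against 3724, 4398 and 3992 CPM in WT UUO (1.14 ± 0.23, edgeR adjusted p = 0.0075). The third Myc cKO UUO library was the highest of its group for each, and none of the libraries overlapped with WT UUO.

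mt-Rnr1 had 26805, 28521 and 38076 CPM in Myc cKO UUO, against 12686, 13668 and 14039 CPM in WT UUO (log2 fold change 1.21 ± 0.21, edgeR adjusted p = 0.0038). mt-Rnr2 had 173304, 255729 and 307187 CPM in Myc cKO UUO, against 128076, 128699 and 134743 CPM in WT UUO (0.91 ± 0.24, edgeR adjusted p = 0.027). mt-Tc, mt-Tn and mt-Tp were higher by 0.97 ± 0.22, 0.93 ± 0.24 and 1.20 ± 0.29. The 2 members of the 16 that did not pass were uncertain ones, mt-Co2 at 1.33 ± 0.46 (adjusted p = 0.072) and mt-Co3 at 1.20 ± 0.51 (adjusted p = 0.14). Without the third Myc cKO UUO library, or without the first WT UUO library, 8 members were called, and in an edgeR fit of these 6 libraries alone 0 of 16 were called, with 15 at an unadjusted p under 0.05.

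In Twist cKO UUO, the 5 higher members were mt-Rnr1 and 4 complex I mRNAs. mt-Rnr1 had 22415, 29782 and 36959.9 CPM in Twist cKO UUO, against 12686, 13668 and 14039 CPM in WT UUO (log2 fold change 1.14 ± 0.21, edgeR adjusted p = 0.016). mt-Nd5 had 749, 1355 and 1328 CPM in Twist cKO UUO, against 448, 558 and 491 CPM in WT UUO (1.20 ± 0.24, edgeR adjusted p = 0.019). mt-Nd2, mt-Nd4 and mt-Nd6 were higher by 1.14 ± 0.24, 1.14 ± 0.24 and 0.95 ± 0.23. The libraries did not overlap for any of the 5, and in all not for 15 of the 16, as for 15.7% of all genes.

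mt-Rnr2 had 186757, 239109.6 and 148306 CPM in Twist cKO UUO, a fold change of 0.55 ± 0.24 that did not pass (edgeR adjusted p = 0.19). mt-Co1 at 0.59 ± 0.23 (adjusted p = 0.14), mt-Nd1 at 0.82 ± 0.26 (adjusted p = 0.076) and mt-Cytb at 0.81 ± 0.24 (adjusted p = 0.060) did not pass either. The calls depended on single libraries: edgeR called 0 members without the first WT UUO library or without the second Twist cKO UUO library, and 1 without the third Twist cKO UUO library, while DESeq2 called 11 on all libraries.

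In Snail cKO UUO, the rRNAs and the mRNAs other than the uncertain members lay above WT UUO without passing the test. mt-Rnr1 had 21083, 19309 and 19155 CPM in Snail cKO UUO, against 12686, 13668 and 14039 CPM in WT UUO (log2 fold change 0.56 ± 0.21, edgeR adjusted p = 0.22). mt-Nd2 had 502, 409 and 456 CPM in Snail cKO UUO, against 240.3, 342 and 256 CPM in WT UUO (0.71 ± 0.23, edgeR adjusted p = 0.19). mt-Co1 stood at 0.53 ± 0.23 (adjusted p = 0.29) and mt-Rnr2 at 0.44 ± 0.24 (adjusted p = 0.42). The libraries did not overlap for 15 of the 16 members, as they did not overlap in this direction for 12.8% of all genes.

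The 1 member called in Snail cKO UUO was mt-Nd3, a small complex I subunit and one of the uncertain members. It had 264, 195 and 289 counts in Snail cKO UUO, against 14, 19 and 19 counts in WT UUO (3.16, 2.61 and 3.44 against 0.166, 0.237 and 0.232 CPM). Its log2 fold change was 3.85 ± 0.48 (edgeR adjusted p = 0.0025), and it was called whichever library was left out. It had 27, 31 and 84 counts in Myc cKO UUO and 40, 61 and 28 in Twist cKO UUO. Against contralateral kidneys, which had 453, 211 and 230 counts, the log2 fold change of mt-Nd3 in Snail cKO UUO was -0.74 ± 0.42 (edgeR adjusted p = 0.16). On library totals alone, where the median of all genes stood at 0.98, its sign turned, to 0.19.

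Its neighbour on the same stretch was not called. mt-Co3, the neighbouring complex IV mRNA, had 387, 204 and 408 counts in Snail cKO UUO, against 164, 166 and 264 in WT UUO. The ratio of mt-Nd3 to mt-Co3 counts was 0.682 to 0.956 in the Snail cKO UUO libraries, against 0.0720 to 0.114 in WT UUO, and it reached no more than 0.153 in any library of the other groups. Gm10222, the nuclear copy of mt-Nd4l on chromosome 1 and the only one of these chromosome 1 copies with a row in the table, moved the other way. It had 6, 5 and 2 counts in Snail cKO UUO, against 26, 18 and 24 counts in WT UUO (log2 fold change -2.31 ± 0.38, edgeR adjusted p = 0.022), and 52, 80 and 88 counts in Myc cKO UUO. This fall was lost in 4 of the 6 fits that leave out 1 of these libraries (edgeR adjusted p = 0.0591 to 0.106, without the first or the third library of either group), with limma (adjusted p = 0.0670) and in a fit of the 6 libraries alone (adjusted p = 0.144). The part of the nuclear copies in these values was not tested.

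**Figure D4:**
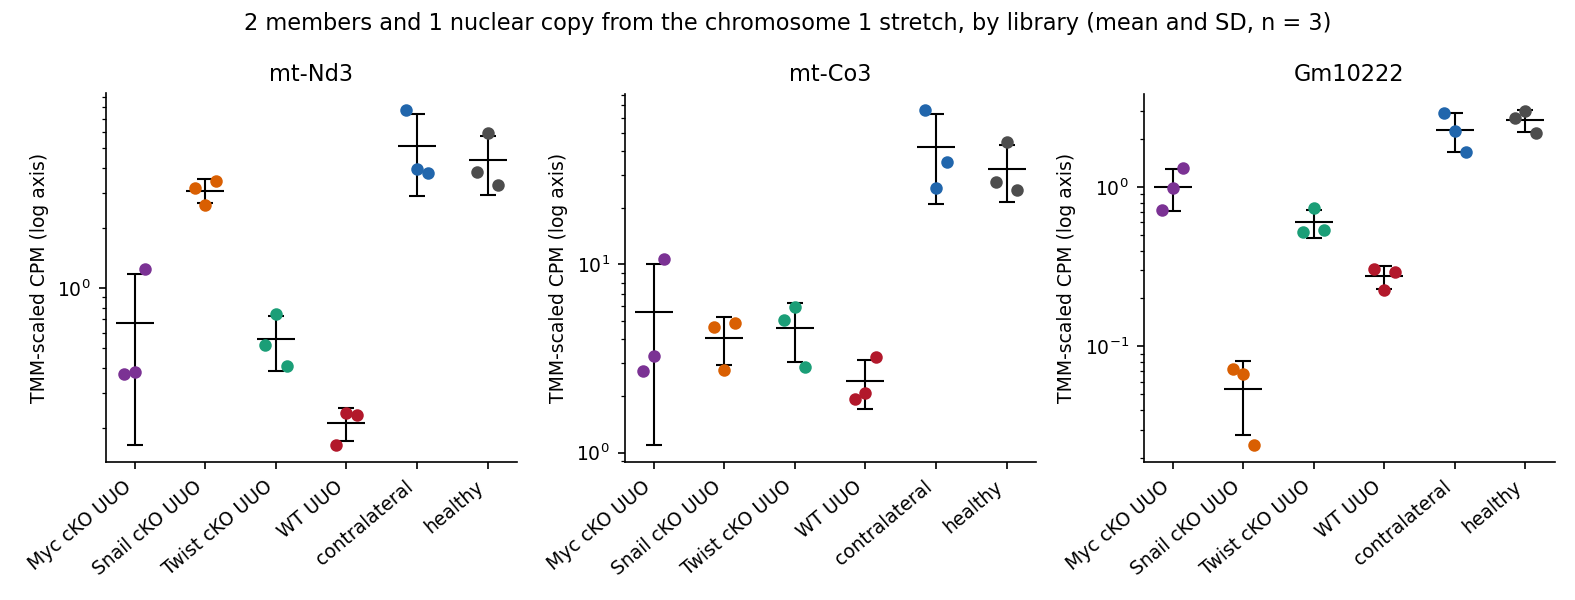
TMM-scaled CPM (log axis) of mt-Nd3, its neighbour mt-Co3 and the nuclear copy Gm10222 in every library, with mean and SD (n = 3). The Snail cKO UUO libraries are high among obstructed kidneys for mt-Nd3, within the range of the other obstructed kidneys for mt-Co3, and the lowest of all for Gm10222.

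Set against contralateral kidneys, every knockout's obstructed kidneys stayed low. Of the 16 members, 16 were lower in Myc cKO UUO (22.5% of all genes were called lower), 15 for Snail cKO UUO (22.8%) and 16 for Twist cKO UUO (21.4%), and mt-Nd3 in Snail cKO UUO was the exception. mt-Co1 was lower by log2 fold changes of -1.37 ± 0.23 for Myc cKO, -1.98 ± 0.23 for Snail cKO and -1.92 ± 0.23 for Twist cKO kidneys, each with an edgeR adjusted p of at most 0.00025. mt-Rnr1 was lower by -1.85 ± 0.21, -2.50 ± 0.22 and -1.91 ± 0.21 in the same order. These 3 comparisons share the contralateral libraries.

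Between knockouts few differences passed. Myc cKO UUO against Snail cKO UUO gave higher mt-Nd2 (log2 fold change 1.03 ± 0.24, edgeR adjusted p = 0.033), mt-Nd5 (0.96, adjusted p = 0.044) and mt-Nd6 (0.94, adjusted p = 0.045), with 0.523% of all genes called higher, and lower mt-Nd3 (-2.20 ± 0.44, adjusted p = 0.019), with 1.92% called lower. edgeR called 0 members without the first or the third Snail cKO UUO library or without the second Myc cKO UUO library, 1 without the second Snail cKO UUO or the third Myc cKO UUO library, and 8 without the first Myc cKO UUO library. Twist cKO UUO against Snail cKO UUO gave lower mt-Nd3 alone (-2.45 ± 0.45, adjusted p = 0.040, 0.0855% of all genes), and that call was lost without any 1 library of either group. Myc cKO UUO against Twist cKO UUO gave no call (2.99% of all genes in either direction), with 4 members at an unadjusted p under 0.05 and 0 called by DESeq2 or limma. mt-Nd2 stood at 0.59 ± 0.23 there (adjusted p = 0.19), a difference that did not pass and is not shown to be absent.

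As the mean of the 3 knockout groups against WT UUO, 12 members were higher (4.38% of all genes). mt-Nd2 rose by 1.20 ± 0.21 (edgeR adjusted p = 0.0061) and mt-Co1 by 0.75 ± 0.19 (adjusted p = 0.027). The count was 0 without the first WT UUO library and 6 without the third.

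The balance among the transcripts within a library does not depend on how libraries are scaled, though an effect of library preparation was not tested. It was followed with 4 ratios of counts, each tested between obstructed and unobstructed kidneys and between knockout and WT UUO kidneys by an exact two-sided permutation test, with Benjamini-Hochberg adjustment over the 8 tests. The ratio of mt-Rnr2 to mt-Rnr1 was 10.1, 9.42 and 9.60 in WT UUO, against 5.75, 4.95 and 6.01 in contralateral kidneys and 7.51, 5.97 and 4.99 in healthy kidneys. Over all 12 obstructed against 6 unobstructed libraries the difference was 0.48 log2 units (exact permutation p = 0.0137, adjusted p = 0.0219). The ratio was 6.47, 8.97 and 8.07 in the Myc cKO libraries, 8.76, 8.37 and 9.72 for Snail cKO and 8.33, 8.03 and 4.01 for Twist cKO. The third Twist cKO UUO library, at 4.01, lay below every unobstructed library.

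Relative to mt-Rnr2, both mRNAs tested were lower. mt-Co1 per count of mt-Rnr2 was lower by 0.29 log2 units in obstructed than in unobstructed kidneys (geometric means 0.0328 and 0.0401, exact permutation p = 0.00162, adjusted p = 0.0129). mt-Nd1, which directly follows mt-Rnr2 on the genome with 1 tRNA between them, was lower by 0.34 log2 units relative to it (geometric means 0.00934 and 0.0118, exact permutation p = 0.0123, adjusted p = 0.0219). The groups were not alike in this: mt-Nd1 per count of mt-Rnr2 was 0.00942 to 0.0130 in Myc cKO UUO, 0.00825 to 0.00940 in Snail cKO UUO, 0.00925 to 0.0109 in Twist cKO UUO and 0.00718 to 0.00918 in WT UUO, against 0.00947 to 0.0115 in contralateral kidneys and 0.0122 to 0.0147 in healthy kidneys. The mean of Myc cKO UUO, 0.0110, lay above that of contralateral kidneys, 0.0104, and the Twist cKO UUO libraries overlapped with the contralateral ones. mt-Co1 per count of mt-Rnr2 was 0.0325 to 0.0399 in Myc cKO UUO, which also overlapped with the contralateral libraries. All 12 obstructed libraries were of kidneys with a ligated ureter, but 9 of them carried a knockout.

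mt-Nd6 and mt-Nd5 lie tail to tail on opposite strands and overlap by 14 bases, so their ratio sets a minus-strand against a plus-strand gene. As the strand setting of the counting is not known, either count may hold reads of RNA from the opposite strand. mt-Nd6 per count of mt-Nd5 was 0.171 to 0.192 in the 9 knockout libraries, against 0.215 to 0.222 in the 3 WT UUO libraries, with no overlap. The difference was -0.26 log2 units (exact permutation p = 0.00909, the smallest that 220 splits allow, adjusted p = 0.0219). Pooled, the 12 obstructed libraries lay 0.15 log2 units above the 6 unobstructed ones (exact permutation p = 0.00625, adjusted p = 0.0219). The ratio was 0.164 to 0.176 in contralateral and 0.164 to 0.184 in healthy kidneys. The knockout libraries overlapped with these unobstructed ones, and only the WT UUO libraries lay wholly above them. The knockout kidneys also had a lower mt-Rnr2 to mt-Rnr1 ratio than WT UUO kidneys (-0.34, exact permutation p = 0.0273, adjusted p = 0.0312) and a higher mt-Nd1 to mt-Rnr2 ratio (0.28, exact permutation p = 0.0273, adjusted p = 0.0312). mt-Co1 to mt-Rnr2 did not pass (0.11, exact permutation p = 0.182). The 3 knockout differences that passed were lost without the first or the third WT UUO library (exact permutation, adjusted p = 0.0582 to 0.125), and that of mt-Rnr2 to mt-Rnr1 also without the second (adjusted p = 0.0727). mt-Co1 to mt-Rnr2 passed without the second WT UUO library (0.19, exact permutation, adjusted p = 0.0416). Leaving out a WT UUO library leaves fewer splits, so the smallest possible exact permutation p rises above 0.00909. A call lost or gained in this way therefore cannot by itself be read as dependence on the library left out.

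**Figure D5:**
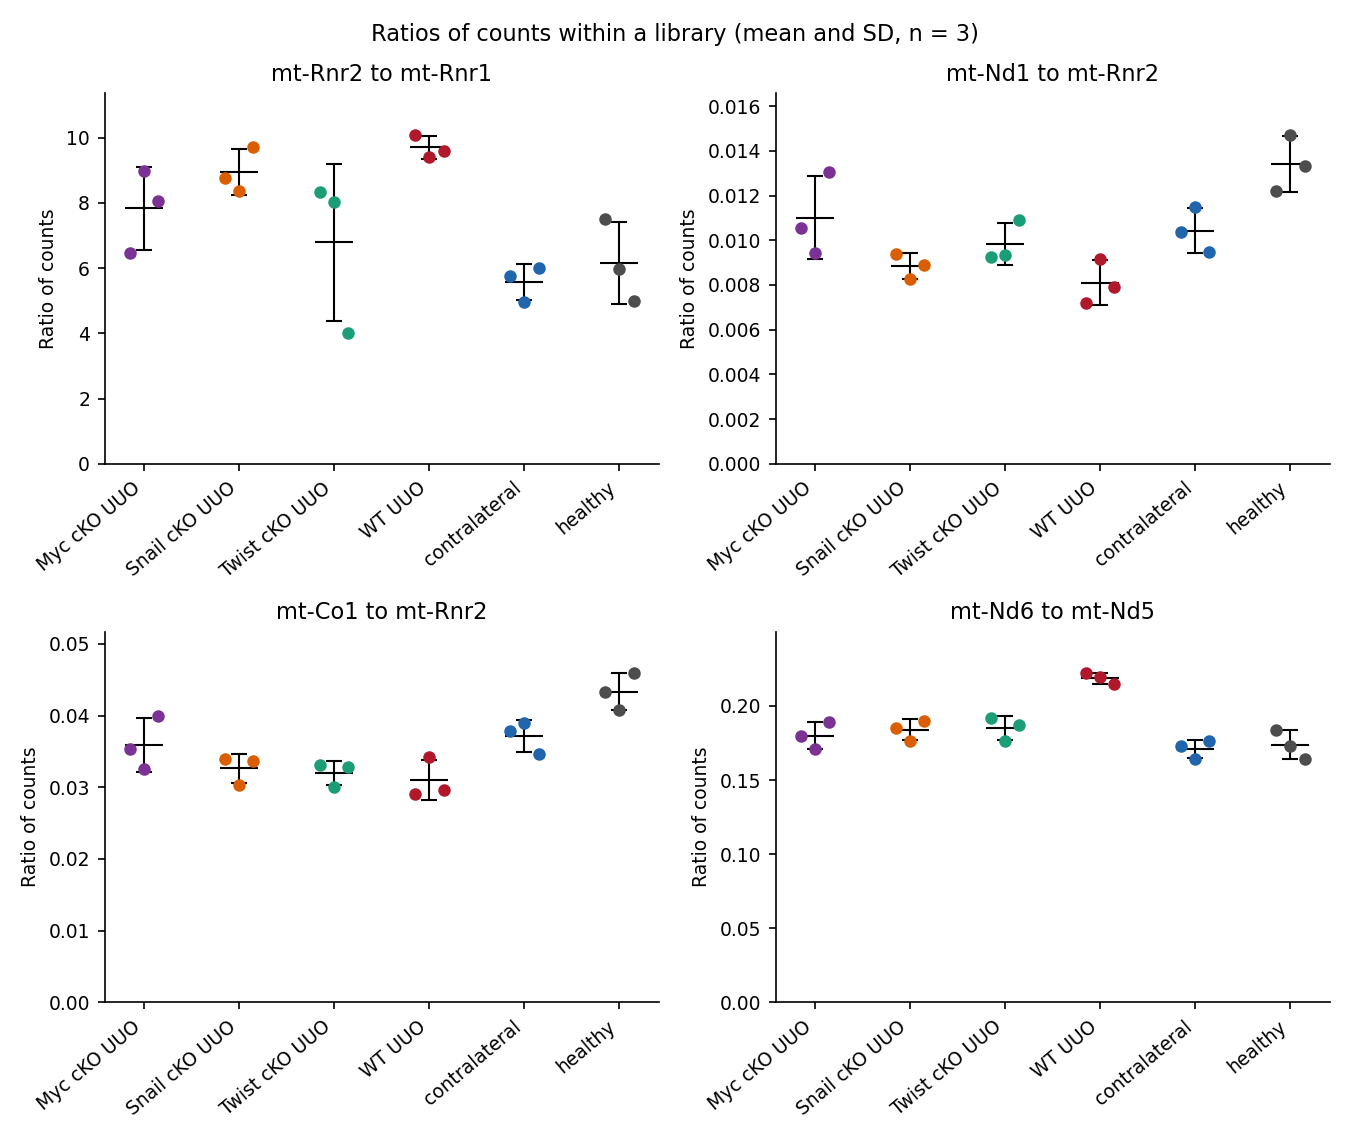
Ratios of counts of 2 mitochondrial transcripts within each library, with mean and SD (n = 3). WT UUO kidneys have the highest mean of mt-Rnr2 to mt-Rnr1, and all 3 of their libraries lie above every other for mt-Nd6 to mt-Nd5; the third Twist cKO UUO library is the low point of mt-Rnr2 to mt-Rnr1 at 4.01.

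Most tested nuclear genes that transcribe and process mitochondrial RNA were lower in WT UUO than in contralateral kidneys, where 26.0% of all genes were called lower, while those that modify the rRNAs or maintain the mitochondrial DNA mostly did not pass. All 5 tested genes of mitochondrial transcription were called lower (median log2 fold change -0.81). Among them were Tefm, the elongation factor (-1.17 ± 0.14), the polymerase Polrmt (-0.99 ± 0.14) and its partner Tfam, which packages the genome (-0.81 ± 0.12). On library totals alone, where the median of all genes stood at 1.10, the median of these 5 genes was 0.25. Of them 2 were called higher and none lower, so the sign of their change rests on the TMM scaling. Their median lay below that of all genes under both scalings. Of 19 genes of mitochondrial RNA processing, stability and decay, 16 were lower (median -0.64, 0.41 on library totals alone), among them Fastkd1 (-1.27 ± 0.10), Hsd17b10, a subunit of the enzyme that cuts the 5′ ends of tRNAs (-1.27 ± 0.12), and Tbrg4 (-0.95 ± 0.10). Of the 9 regulators of mitochondrial biogenesis, 7 were lower and 2 higher, with a median of -1.71 that stayed below 0 on library totals alone (-0.66). Esrra, a nuclear receptor that drives respiratory genes, changed by -1.93 ± 0.14. Of 6 genes of mitochondrial rRNA modification, 2 were lower, Mettl15 (-0.66 ± 0.15) and Nsun4 (-0.37 ± 0.12), and none higher, with a median of -0.28, and on library totals alone all 6 were higher. Of 9 genes of mitochondrial DNA maintenance, 3 were lower and 1 higher (median -0.22, 0.82 on library totals alone). Of 12 genes of the mitochondrial outer membrane and import machinery, 11 were lower (median -0.76, 0.29 on library totals alone).

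The nuclear partners of the mitochondrial mRNAs fell as well. All 36 nuclear complex I subunits were lower in WT UUO than in contralateral kidneys (median log2 fold change -1.58, with 26.0% of all genes called lower), as were all 9 of complex III (-1.86), all 10 of complex IV (-1.78) and all 16 tested of complex V (-1.62). All 4 subunits of complex II, which has no mitochondrially encoded part, were lower too (-1.90), with Sdha, its flavoprotein, at -2.04 ± 0.17. On library totals alone these medians were -0.52, -0.80, -0.73, -0.57 and -0.85. The 16 mitochondrial members had a median of -3.00 in the same comparison, and the difference from the nuclear subunits was not tested.

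In Myc cKO UUO against WT UUO, 18 of the 36 nuclear complex I subunits were higher (median log2 fold change 0.55, with 5.31% of all genes called higher), with 4 of 4 in complex II (0.66), 5 of 9 in complex III (0.59), 7 of 10 in complex IV (0.67) and 7 of 16 in complex V (0.52). Ndufa5 of complex I changed by 0.86 ± 0.17 (edgeR adjusted p = 0.0072) and Cox7c of complex IV by 0.72 ± 0.15 (edgeR adjusted p = 0.0076). Of the regulators, 4 of 9 were higher, among them the coactivator Ppargc1a (1.17 ± 0.27) and the receptor Esrrg (0.73 ± 0.15). Of the transcription list only Tefm was called (0.49 ± 0.14, edgeR adjusted p = 0.031). Without the third Myc cKO UUO library, or without the first WT UUO library, 1 nuclear complex I subunit was called, 0 of the nuclear complex III subunits and of the complex II subunits, and 1 each of the nuclear complex IV subunits, the nuclear complex V subunits and the regulators. Without the second or the third WT UUO library 3 or 4 nuclear complex IV subunits were called, and without the third 2 regulators. In a fit of the 6 libraries alone no gene of these lists was called.

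In Twist cKO UUO against WT UUO, no nuclear subunit of complexes I, III, IV or V was called (medians 0.31, 0.38, 0.39 and 0.33), and 1 of complex II was, Sdha (0.63 ± 0.16, edgeR adjusted p = 0.042), where 2.97% of all genes were called higher. Of the regulators, 3 of 9 were higher: the coactivator Ppargc1b (0.96 ± 0.15), Esrrg (0.86 ± 0.15) and Esrra (0.64 ± 0.13), with none called without the first WT UUO library and 1 without the second Twist cKO UUO library. Sdha lost its call without any 1 library except the third of Twist cKO UUO. In Snail cKO UUO against WT UUO no gene of these lists was called, with medians of 0.21 for complex I and 0.45 for the regulators.

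Markers of some cell types of the kidney moved with these values, and those of others did not. The summed CPM of 10 proximal tubule markers was 2340 to 4407 in Myc cKO UUO, 1695 to 2664 in Snail cKO UUO, 2437 to 4251 in Twist cKO UUO and 679 to 1622 in WT UUO, against 13814 to 17146 in contralateral kidneys and 13115 to 14343 in healthy kidneys. All 10 were lower in WT UUO than in contralateral kidneys (median log2 fold change -3.88, with 26.0% of all genes called lower). Against WT UUO, 7 of 10 were higher in Myc cKO UUO (5.31% of all genes), 1 in Snail cKO UUO (0.162%) and 7 in Twist cKO UUO (2.97%). The 8 markers of the loop of Henle and distal tubule summed to 895 to 2406 CPM in Myc cKO UUO, 1319 to 2019 in Snail cKO UUO, 2295 to 3189 in Twist cKO UUO and 881 to 1949 in WT UUO, against 5567 to 7217 in contralateral kidneys and 4502 to 6428 in healthy kidneys. For these the Myc cKO UUO libraries, which had the highest mitochondrial levels of the obstructed groups, overlapped with WT UUO, and 1 of 8 was called higher. Within groups, the third Myc cKO UUO library was the highest of its group for proximal tubule markers and for mt-Co1, and the first WT UUO library was the lowest of its group for both. The second library was the highest for both in Twist cKO UUO, WT UUO and contralateral kidneys. In Snail cKO UUO and in healthy kidneys different libraries were the highest for the markers and for mt-Co1.

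The summed CPM of 8 fibroblast and myofibroblast markers ran the other way, with 819 to 3256 in Myc cKO UUO, 2661 to 3734 in Snail cKO UUO, 1913 to 2239 in Twist cKO UUO and 3860 to 7625 in WT UUO, against 279.7 to 403 in contralateral kidneys and 288 to 409 in healthy kidneys. The 7 leukocyte markers summed to 294 to 463 CPM in WT UUO, against 38.8 to 48.7 in contralateral kidneys. In Myc cKO UUO their sum was 188 to 290 CPM and in Twist cKO UUO 180 to 231, both wholly below WT UUO. Snail cKO UUO, at 218 to 304, overlapped with WT UUO. The first WT UUO library also had 397 CPM of 6 urothelial markers, against 95.4 and 46.0 in the other two of its group. The 7 endothelial markers summed to 412 to 570 CPM in WT UUO, against 373.6 to 403.8 in contralateral kidneys and 467 to 534 in healthy kidneys, a range that lies within that of WT UUO. The 6 adipocyte markers summed to 40.4 to 138 CPM in WT UUO, against 51.1 to 130 in contralateral kidneys. No marker list was at 0. The part of cell composition in the mitochondrial values was not tested.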

How the data were processed

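RNA extracted with TRIzol from a portion of each kidney was made into stranded whole-transcriptome libraries and sequenced in pairs, per the labels' protocols. The authors deposited raw counts per gene. The submitters' processing notes name bcl2fastq 1.8.4, HTSeq, DESeq2 and mm10, while the aligner, the strand setting and the handling of reads with several matches are nowhere stated (not given in the sources used here). Of the table's 24 columns, 6 matched no sample and were not used. Which kidneys share an animal is not labelled, and p-values reflect only how far these samples spread.

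The counts of 21050 genes passing filterByExpr were fitted with edgeR 4.0.16 in R 4.3.3 (TMM, robust quasi-likelihood test, all 6 groups in 1 fit, 12 residual degrees of freedom, Benjamini-Hochberg adjustment over all genes, threshold 0.05). The same steps were first tried on counts simulated for a Twist cKO UUO and a WT UUO group alone, which does not test the fit of all 6 groups. DESeq2 1.42.0 and limma 3.58.1 were alternatives, with other scalings, no filter, a covariate for Cre or for sex, fits of the compared groups alone, and each library left out. Sequence sharing was read from GENCODE transcripts with Python 3.11.15 and BLAST+ 2.17.0+. Shares had no test, and ratios an exact permutation test.

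The members, the gene lists and the ratios were chosen with earlier results of these data known. All mitochondrial mRNAs and rRNAs were eligible to be named, with the most abundant tRNAs and, per list, up to 3 genes of smallest p. The ratios to mt-Co3, Gm10222 and the regulators and subunits named beyond that rule were chosen after their values were seen. Genes most like mt-Co1 across libraries are not given, because the libraries form an obstructed and an unobstructed cluster.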

Additional observations from a re-analysis of the deposited data

Results flagged for a closer look

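The effects of 2 knockouts against WT UUO differed for 5 gene and knockout pairs, each tested as the direct difference between the knockouts in edgeR. For mt-Nd3 the difference was -2.45 log2 units in Twist cKO UUO minus Snail cKO UUO (adjusted p = 0.040). For mt-Nd3 it was -2.20 in Myc cKO UUO minus Snail cKO UUO (adjusted p = 0.019). In the same contrast of Myc cKO UUO minus Snail cKO UUO, mt-Nd2 differed by 1.03 (adjusted p = 0.033), mt-Nd5 by 0.96 (adjusted p = 0.044) and mt-Nd6 by 0.94 (adjusted p = 0.045). mt-Nd3 in Twist cKO UUO against Snail cKO UUO was not called without any 1 of the 6 libraries.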

How the results depend on the processing

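No paired analysis was possible because the labels give no replicate numbers that tie samples together. The 16 members at the filter minimum in every group were all called lower in WT UUO than in contralateral and than in healthy kidneys under each of the 15 alternatives run for each comparison. The other counts here are over the 20 tested members, except that the fits with only the groups compared tested 16 where they are given here. For Twist cKO UUO against WT UUO, 5 members were called, against 11 with DESeq2, 9 with sex as a covariate and 8 with only the groups compared. For Snail cKO UUO against WT UUO the count was 1, and 2 with DESeq2. For Myc cKO UUO against WT UUO it was 14, and 0 with only the groups compared. For Twist cKO UUO against Snail cKO UUO it was 1, and 0 with Cre as a covariate. For Myc cKO UUO against Snail cKO UUO it was 4, against 2 on library totals alone, 8 with DESeq2, 2 with Cre as a covariate and 0 with only the groups compared. The cause was not tested.

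Leaving out 1 library gave 0 to 8 calls for Myc cKO UUO against Snail cKO UUO, 8 to 17 for Myc cKO UUO against WT UUO, 0 for Twist cKO UUO against Snail cKO UUO, 0 to 5 for Twist cKO UUO against WT UUO and 0 to 15 for the mean of the knockouts. The knockout differences of ratios were -0.39 to -0.23 for mt-Rnr2 to mt-Rnr1, 0.20 to 0.38 for mt-Nd1 to mt-Rnr2, 0.071 to 0.19 for mt-Co1 to mt-Rnr2 and -0.27 to -0.25 for mt-Nd6 to mt-Nd5.

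On library totals alone the sign turned for Polrmt (0.066), Tbrg4 (0.10) and Tfam (0.25) in WT UUO against contralateral kidneys, where the median of all genes stood at 1.10, and for mt-Nd3 in Snail cKO UUO against contralateral kidneys (0.19, with that median at 0.98).

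Shares moved with their denominator, and mRNA and tRNA kept the order of the group means. For rRNA, contralateral kidneys stood above healthy kidneys in all counts (47.97 and 47.96%) and below them relative to nuclear counts. Relative to counts without the 2 mitochondrial rRNAs, and then to nuclear counts, mRNA stood at 2.94 and 3.04% in Myc cKO UUO, 1.83 and 1.87% for Snail cKO UUO, 2.09 and 2.14% for Twist cKO UUO, 1.26 and 1.27% in WT UUO, 6.29 and 6.71% in contralateral kidneys and 7.35 and 7.94% in healthy kidneys. tRNA stood at 0.00942 and 0.00972%, 0.00682 and 0.00694%, 0.00808 and 0.00826%, 0.00478 and 0.00484%, 0.0219 and 0.0234%, and 0.0293 and 0.0316% in the same groups. Relative to nuclear counts, rRNA stood at 46.4, 33.9, 37.4, 24.6, 98.6 and 100.002% in them.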

Other observations

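The summed counts of mt-Co2, mt-Co3 and mt-Atp6 per 1000 counts of mt-Co1 were 1.06, 0.938 and 1.96 in Myc cKO UUO, 1.49, 1.17 and 1.58 for Snail cKO UUO, 1.75, 1.68 and 1.39 for Twist cKO UUO and 1.15, 1.05 and 1.53 in WT UUO, against 6.27, 2.30 and 3.35 in contralateral kidneys and 2.00, 3.11 and 2.36 in healthy kidneys. The first contralateral library was the highest of all 18, and the third Myc cKO UUO library the highest of the obstructed kidneys. This ratio was chosen after the values were seen and was not tested.

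The nuclear copy Gm10222 had 52, 80 and 88 counts in Myc cKO UUO, 6, 5 and 2 for Snail cKO UUO, 40, 61 and 37 for Twist cKO UUO and 26, 18 and 24 in WT UUO, against 172, 122 and 102 in contralateral kidneys and 134, 146 and 141 in healthy kidneys. It was higher in Myc cKO UUO (log2 fold change 4.18 ± 0.38, edgeR adjusted p = 8.6e-05) and in Twist cKO UUO (3.44 ± 0.38, edgeR adjusted p = 0.0005) than in Snail cKO UUO.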
